A study of Mus musculus with 12 samples.

Results

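Plasmacytoid dendritic cells are a rare class of dendritic cell, and 10 genes that mark them in the mouse were followed through sorted tumour leukocytes: Siglech, Tcf4, Spib, Runx2, Ccr9, Ly6d, Pacsin1, Cox6a2, Klk1 and Sct. The genes were chosen by name, with earlier results of these data known, and all 10 were found among the 55401 gene identifiers measured. The cells were live leukocytes sorted from B16-OVA tumours of wild-type mice by 2 surface proteins. CD45 is carried by all white blood cells, and CD11c is an integrin chain of dendritic cells that many macrophages carry too. B16-OVA cells are mouse melanoma cells made to express chicken ovalbumin. Treatment began on day 10 of tumour growth, and cells were taken on day 17.

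RNA was sequenced from 12 libraries in 4 groups of 3. The combined group received 20 Gy of radiation on day 10 together with a fusion protein, whose first dose (20 mcg) fell on the same day and whose second (10 mcg) followed on day 14. The fusion protein group had both doses with no radiation, the 20 Gy group had the radiation alone, and the untreated group had neither. The sources used here do not give the parts of the fusion protein, the age and sex of the mice or any vehicle. Nor do the labels tie the samples of a group to separate mice, so a p-value measures the spread between these samples, part of which may be technical.

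Plasmacytoid dendritic cells detect viral and self nucleic acids through the endosomal receptors TLR7 and TLR9 and can release large amounts of type I interferon. Their identity is held by TCF4, also called E2-2, a basic helix-loop-helix protein that binds DNA at E-box motifs, written CANNTG. In the mouse they carry less CD11c on their surface than conventional dendritic cells, so a CD11c gate can hold part of the population. Sct encodes secretin, known as the duodenal hormone that makes the pancreas secrete bicarbonate, and is also transcribed in plasmacytoid dendritic cells.

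Sct differed from the other 9 genes. All 6 libraries from mice given the fusion protein had more Sct than all 6 libraries from mice not given it. That held for 1.86% of all genes tested in the higher direction. Group means of Sct were 16.9 times the untreated mean in combined and 11.3 times in fusion protein libraries. None of the other 9 genes separated those libraries in this way, and all 9 had negative log2 fold changes against untreated libraries in both groups, none of them past the limma test without a replicate block. Over all genes tested, 51.31% of these fold changes were above 0 in combined and 49.47% in fusion protein libraries. The Sct promoter is shown beside that of Siglech, a gene that did not follow it, with capitals marking each E-box (CANNTG). The sequences are from RefSeq, build GRCm38.p6, and run 5′ to 3′ on the gene's own strand from 250 bases before the annotated start to 50 bases after it. They cover chr7:141279084-141279383 on the minus strand for Sct and chr7:55767934-55768233 on the plus strand for Siglech.

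Sct: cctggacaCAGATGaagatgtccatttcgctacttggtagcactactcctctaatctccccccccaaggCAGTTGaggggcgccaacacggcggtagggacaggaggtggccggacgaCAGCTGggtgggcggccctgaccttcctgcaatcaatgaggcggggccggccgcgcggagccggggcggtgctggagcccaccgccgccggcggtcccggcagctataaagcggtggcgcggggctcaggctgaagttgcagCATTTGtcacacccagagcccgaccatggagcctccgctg

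Siglech: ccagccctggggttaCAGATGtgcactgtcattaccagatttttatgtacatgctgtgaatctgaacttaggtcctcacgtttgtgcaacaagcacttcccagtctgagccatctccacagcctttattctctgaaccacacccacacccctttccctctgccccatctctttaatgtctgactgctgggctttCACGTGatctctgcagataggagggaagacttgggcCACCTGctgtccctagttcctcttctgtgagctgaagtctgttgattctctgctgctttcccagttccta

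The Sct window held 4 E-boxes, at −242, −181, −132 and 11 counted from the start site, and the one at −132 read CAGCTG. It also held the TATA-type run TATAAA at −28. The Siglech window held 3 E-boxes, at −235, −56 and −20, with CACCTG at −20. Promoter windows were used for 7 of the 10 genes. Entries on chromosome 18, where Tcf4 lies, were left out of this search. Cox6a2 and Ly6d, on chromosomes 7 and 15, had no window either, which that rule does not account for. Spib, Ccr9 and Runx2 had 2 E-boxes each, Klk1 had 3 and Pacsin1 had 0. Among all 27025 mouse promoters of this length, 72.15% held at least 1 E-box, 16.11% held CAGCTG and 14.16% held TATAAA on either strand. The ETS-type motif GAGGAAG, found in 13.54% of promoters, and an interferon-response-type motif, GAAA followed after any pair of bases by a second GAAA, found in 3.489%, were in none of the 7 windows on either strand. The last motif and TATAAA were added after the Sct values had been seen. These matches are a description of the letters in the windows.

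Sct lies at chr7:141278330-141279133 on the minus strand (GRCm38, ENSMUSG00000038580.13), and its transcripts cover 645 bases. In combined libraries Sct had 134, 135 and 185 normalized counts, and in fusion protein libraries it had 89.9, 99.3 and 115. In 20 Gy libraries it had 0, 2.14 and 9.16 normalized counts, and in untreated libraries 5.99, 7.49 and 13.4. A normalized count is a read count divided by a factor for the depth of its library. The levels rested on 535 Sct reads over the combined group and 288 over the fusion protein group, against 9 over the 20 Gy group and 27 over the untreated group. The 20 Gy library with no Sct read allowed up to 2.64 normalized counts, the worth of 3 reads, which covers counting error only. Fewer cells of a type and less RNA per cell cannot be told apart in such bulk samples.

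Sct averaged 151 ± 28.9 normalized counts in combined libraries and 8.98 ± 3.95 in untreated libraries (SD, n = 3 each). That was a ratio of means of 16.9 and a log2 fold change of 3.99 ± 0.69 (fit SE), with adjusted p = 0.0165 by limma, so Sct rose. The test ran on log2(normalized count + 1), which understates the change of low genes, with p-values adjusted over 18274 genes. Sct was among those genes through its libraries with fusion protein, since of the other libraries only untreated library 3 reached a normalized count of 10. Sct was the only one of the 10 genes called in that comparison, where 1.21% of all genes tested were called higher and 0.192% lower. The groups did not overlap, which held for 10.3% of all genes tested in the higher direction. Sct was higher in 3 of 3 same-numbered pairs, by 3.68 to 4.27 on the log2 scale. The call by limma was lost without combined library 1 (adjusted p = 0.0774), 2 (0.051) or 3 (0.105), or without untreated library 2 (0.0712), while the log2 fold change stayed between 3.77 and 4.29 over the 6 fits that left out 1 library.

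With the fusion protein alone, Sct averaged 102 ± 12.9 normalized counts, against the same 8.98 ± 3.95 in untreated libraries (SD, n = 3 each). The ratio of means was 11.3 and the log2 fold change 3.42 ± 0.69, which did not pass the limma test (adjusted p = 0.0541). With the replicate number fitted as a block, limma gave adjusted p = 0.00515 for the same fold change, and Sct was called. In the limma fit without the block 0 of the 10 genes were called, where 0.586% of all genes tested were called higher and 0.159% lower. With the block these shares were 2.28% and 1.02%. The groups did not overlap here either, as for 5.94% of all genes tested in the higher direction. The untreated libraries entered both of these comparisons.

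Set against 20 Gy, Sct was higher in combined libraries by a log2 fold change of 5.57 ± 0.69 (limma adjusted p = 0.00234), and 0.843% of all genes tested were called higher there, while 8.36% were higher without overlap. The group means were 151 ± 28.9 and 3.77 ± 4.79 normalized counts (SD, n = 3 each), a ratio of 40.2. Since 1 of the 3 radiation libraries had no Sct read, this fold change depends on the pseudocount, and was 3.59 at a pseudocount of 10. The rise was called in all 6 limma fits that left out 1 library, with adjusted p from 0.00033 to 0.0216. The log2 fold change was 4.74 without 20 Gy library 1 and 6.41 without 20 Gy library 3. Combined libraries lay above fusion protein libraries without overlap, as for 4.48% of all genes tested. The log2 difference of 0.56 ± 0.69 was yet within the error of the fit (limma adjusted p = 0.9997). Between 20 Gy and untreated libraries the log2 difference was −1.58 ± 0.69 (limma adjusted p = 0.722) and the groups overlapped.

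**Figure D1:**
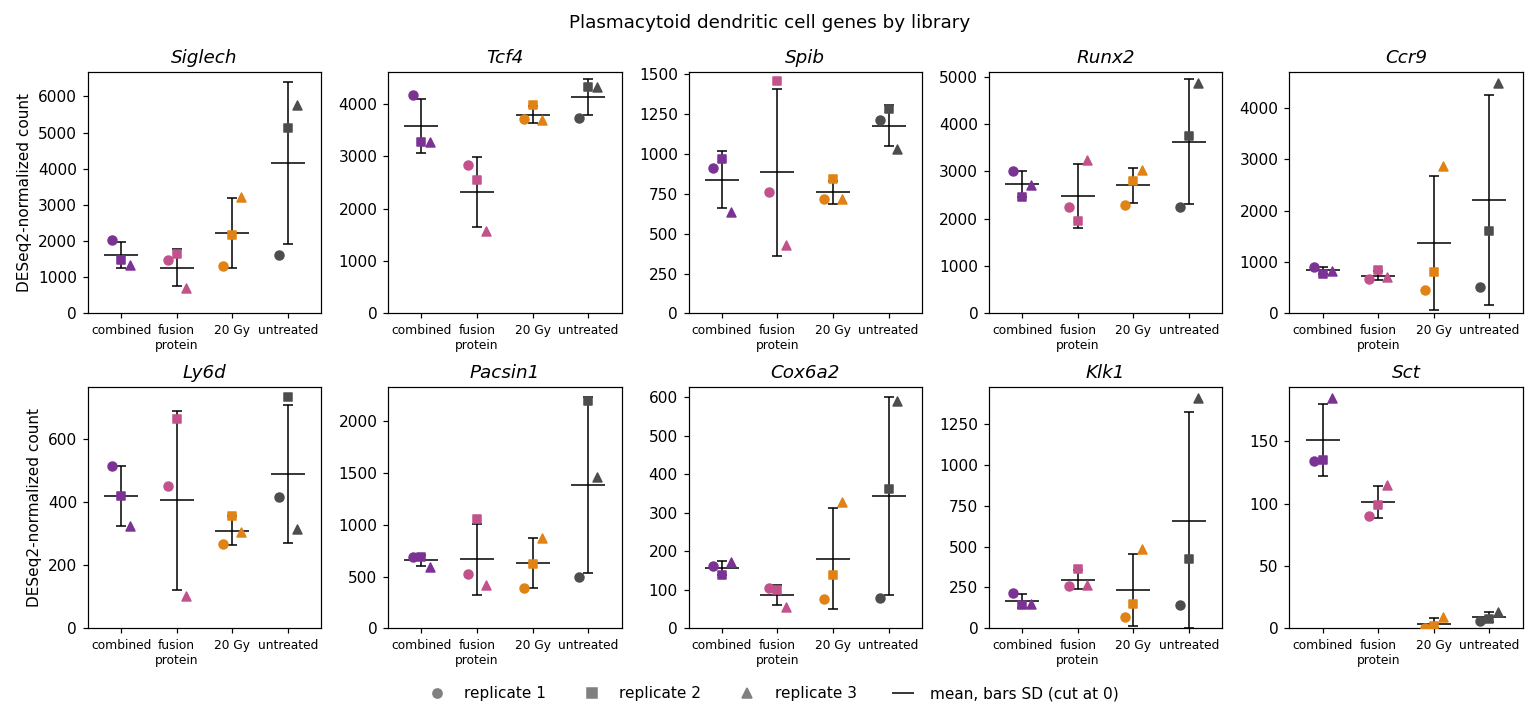
DESeq2-normalized counts (y axis, linear, from 0) of the 10 genes in each of the 12 libraries, with the groups on the x axis, the group mean as a dash and the SD as bars. Sct sits at 89.9 to 185 in the 6 libraries with fusion protein and at 0 to 13.4 in the 6 without. Siglech, Tcf4, Runx2, Ccr9, Ly6d, Pacsin1, Cox6a2 and Klk1 reach their highest values in untreated libraries 2 or 3, and Spib in fusion protein library 2.

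Because Sct and Siglech are both read in plasmacytoid dendritic cells, their ratio within a library was set out as well. Per 100 Siglech reads, combined libraries had 6.60, 9.17 and 13.8 Sct reads and fusion protein libraries 6.13, 6.06 and 16.7. The 20 Gy libraries had 0, 0.0984 and 0.284, and untreated libraries had 0.371, 0.146 and 0.234. The 6 libraries with fusion protein lay above the 6 without. The ranges of Sct and Siglech already fixed that order, so the ratio adds no separate support.

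**Figure D2:**
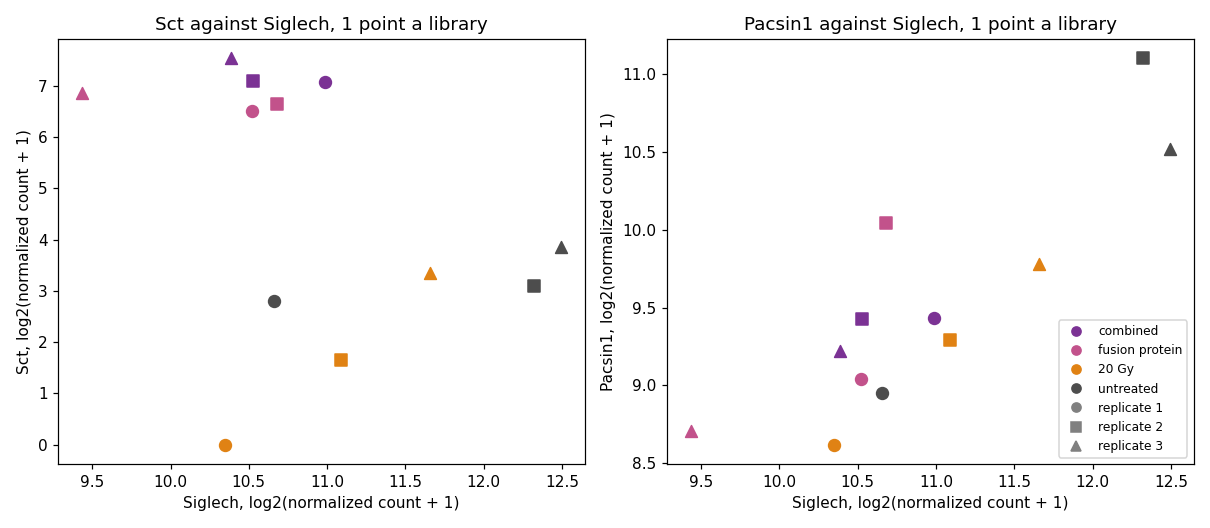
Sct (left) and Pacsin1 (right) against Siglech, both axes in log2(normalized count + 1), with 1 point for each of the 12 libraries, coloured by group and shaped by replicate number. Both Pacsin1 and Siglech are high in untreated libraries 2 and 3, at the upper right. Sct is high in the 6 libraries with fusion protein, whose Siglech runs from 692 to 2029 normalized counts, and low in the 6 without.

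Siglech encodes a sialic acid-binding receptor that is the standard surface marker of mouse plasmacytoid dendritic cells and signals through the adaptor DAP12. It was read in every library. That shows Siglech RNA in each sorted sample, and the cell source of the other genes of the set was not tested. Combined libraries had 2029, 1475 and 1337 normalized counts, fusion protein libraries 1467, 1638 and 692, 20 Gy libraries 1299.7, 2178 and 3231, and untreated libraries 1615, 5125 and 5755. The high values were those of untreated libraries 2 and 3, and untreated library 1 lay within the range of the treated groups. The group means were 1614 ± 366 in combined, 1266 ± 504 in fusion protein, 2236 ± 967 in 20 Gy and 4165 ± 2231 in untreated libraries (SD, n = 3 each).

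Siglech did not pass the limma test in any comparison. Its log2 fold change was −1.19 ± 0.50 in combined against untreated libraries (adjusted p = 0.353) and −1.61 ± 0.50 in fusion protein against untreated libraries (adjusted p = 0.286). After 20 Gy it was −0.79 ± 0.50 (adjusted p = 0.757). DESeq2, run on the recovered reads, called the fusion protein difference, at −1.72 with adjusted p = 0.0285, in a fit that called 0.896% of genes lower and 2% higher. The 3 same-numbered pairs gave −0.14, −1.64 and −3.05, so the size depended on which pair was read.

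Of the 10 genes, 3 encode transcription factors of the lineage, and Tcf4 is the best known of them. Tcf4 had 4177, 3283 and 3282 normalized counts in combined libraries and 2839, 2553 and 1576 in fusion protein libraries. In 20 Gy libraries it had 3719.6, 3984 and 3704, and in untreated libraries 3743, 4326 and 4334. The fusion protein libraries lay below all others, and the other 3 groups overlapped. Against untreated libraries the log2 fold change was −0.87 ± 0.21 with the fusion protein alone, which did not pass the limma test without the replicate block (adjusted p = 0.118) and fell with it (adjusted p = 0.0229). Without overlap between groups, Tcf4 was lower in fusion protein than in untreated libraries, as were 4.7% of all genes tested. In combined against untreated libraries the log2 fold change was −0.21 ± 0.21 (limma adjusted p = 0.759).

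Spib encodes an ETS-family factor that acts in plasmacytoid dendritic cells and in B cells. It had 915, 967 and 639 normalized counts in combined libraries, 764, 1461 and 432 in fusion protein libraries, 718, 842 and 719.8 in 20 Gy libraries and 1215, 1282 and 1033 in untreated libraries. Every combined value lay below every untreated value, which held for 7.52% of all genes tested, and so did every 20 Gy value, which held for 4.79%. The log2 fold changes were −0.50 ± 0.35 and −0.63 ± 0.35 (limma adjusted p = 0.633 and 0.736), within what the fit could not separate from 0. B cell transcripts moved with the library number. The summed level of 13 B cell markers was lowest in library 3 of each group, at 7190 normalized counts in combined, 1106 in fusion protein, 628 in 20 Gy and 358 in untreated. The highest sums were 25277 in combined, 38497 in fusion protein, 18227 in 20 Gy and 29141 in untreated libraries. Of the 13, only Vpreb3 was at 0 anywhere, in 3 libraries. Untreated library 3, with the lowest B cell sum, had 1033 Spib counts. The part of B cell transcripts in Spib was not tested.

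**Figure D3:**
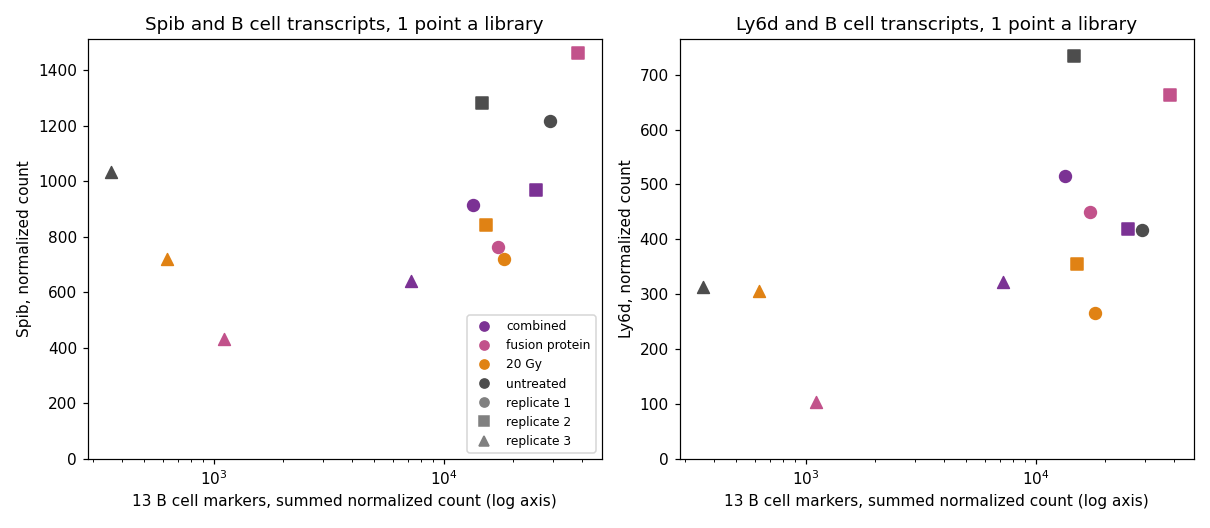
Spib (left) and Ly6d (right), as normalized counts on a linear axis from 0, against the summed normalized count of 13 B cell markers on a log axis, 1 point for each library. The B cell sum runs from 358 to 38497, with the 4 libraries numbered 3 at the left. Spib is highest, at 1461, where the sum is highest, and is at 1033 in the library with the lowest sum. Ly6d is lowest, at 103, at a sum of 1106.

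Runx2 encodes a runt-domain factor required for plasmacytoid dendritic cells to leave the bone marrow, and for bone formation in osteoblasts. It had 3018, 2461 and 2713 normalized counts in combined libraries, 2257, 1946 and 3230.2 in fusion protein libraries, 2296, 2805 and 3023 in 20 Gy libraries and 2241, 3753 and 4875 in untreated libraries. All 4 groups overlapped, and the limma log2 fold changes against untreated libraries ran from −0.51 to −0.34 with adjusted p from 0.697 to 0.800. Summed transcripts of 9 osteoblast and fibroblast genes ran from 65.6 to 502 normalized counts in combined, 37.0 to 68.1 in fusion protein, 106 to 2583 in 20 Gy and 17.5 to 70.3 in untreated libraries, and their part in Runx2 was not tested. The osteoblast genes Sp7, Ibsp and Bglap were at 0 in 8, 7 and 7 of the 12 libraries. Of the Runx2 exon bases, 5.87% overlap those of the antisense gene Runx2os1, which had 16.2 to 65.4 normalized counts.

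Ccr9 encodes the receptor for the chemokine CCL25, carried by most plasmacytoid dendritic cells and by gut-homing T cells. It had 913, 775 and 821 normalized counts in combined libraries and 665, 837 and 713 in fusion protein libraries. In 20 Gy libraries it had 460.2, 805 and 2875, and in untreated libraries 518, 1609 and 4485. In the groups without fusion protein it spread over 6.25-fold and 8.65-fold, with library 3 highest in both, whereas the 6 libraries with fusion protein kept within 665 to 913. The limma log2 fold change was −0.89 ± 0.72 in combined and −1.08 ± 0.72 in fusion protein against untreated libraries (adjusted p = 0.695 and 0.837). T cell transcripts, 10 markers summed, ran from 6019.5 to 18795 normalized counts in combined, 10854 to 25206 in fusion protein, 4249 to 11473 in 20 Gy and 6559.9 to 30751 in untreated libraries, with none of the 10 at 0 in any library, and their part in Ccr9 was not tested. Ccr9 shares 18.8% of its exon bases with the opposite-strand gene AC165425.1, at 13.7 to 122 normalized counts.

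Ly6d encodes a small surface protein anchored in the membrane by a lipid, and is found on lymphoid progenitors, B cells and keratinocytes as well as on plasmacytoid dendritic cells. It had 515, 418 and 323 normalized counts in combined libraries, 449.5, 664 and 103 in fusion protein libraries, 266, 356 and 306 in 20 Gy libraries and 417, 734 and 313 in untreated libraries. The groups overlapped throughout, and the limma log2 fold changes against untreated libraries lay between −0.57 and −0.15 with adjusted p from 0.847 to 0.962. The lowest value belonged to fusion protein library 3, which also had the lowest Siglech and Spib. The 7 keratinocyte markers summed to at most 80.4 normalized counts in any library, and none of them passed the filter on low values. Lor was at 0 in 10 libraries and Krt5 in 7.

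The remaining 3 genes encode proteins with other known homes. Pacsin1 encodes an adaptor of membrane traffic that is abundant in neurons and takes part in the interferon response of plasmacytoid dendritic cells. It had 689.5, 686 and 596 normalized counts in combined libraries, 526, 1054 and 418 in fusion protein libraries, 392, 626 and 877 in 20 Gy libraries and 495, 2195 and 1465 in untreated libraries. Its limma log2 fold change was −0.83 ± 0.51 in combined, −0.93 ± 0.51 in fusion protein and −0.96 ± 0.51 in 20 Gy against untreated libraries, with adjusted p of 0.569, 0.723 and 0.723. Untreated library 1 lay below the mean of each treated group. The 7 neuron and Schwann cell genes summed to 66.9 to 109.6 normalized counts in combined, 46.6 to 109.9 in fusion protein, 80.4 to 171 in 20 Gy and 34.9 to 78.6 in untreated libraries, and their part in Pacsin1 was not tested.

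Cox6a2 encodes the heart and skeletal muscle form of a cytochrome c oxidase subunit. It had 161, 138 and 172 normalized counts in combined libraries, 104, 98.3 and 56.0 in fusion protein libraries, 75.7, 138 and 327 in 20 Gy libraries and 79.4, 361 and 591 in untreated libraries. The limma log2 fold change was −0.72 ± 0.68 in combined and −1.62 ± 0.68 in fusion protein against untreated libraries (adjusted p = 0.745 and 0.528). Every combined value lay above every fusion protein value, as for 4.48% of all genes tested. The 10 muscle genes summed to 106 to 129 normalized counts in combined, 96.2 to 128 in fusion protein, 157 to 243 in 20 Gy and 103 to 187 in untreated libraries, with Cox8b at 0 in 10 libraries and Mb in 4, and their part in Cox6a2 was not tested. Cox6a2 lies within Itgad on the opposite strand and shares 10.3% of its exon bases with it. Itgad had 46.1 to 953 normalized counts, and whether reads were counted by strand is not stated in the sources.

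Klk1 encodes tissue kallikrein, a serine protease that frees kinins and is best known from kidney and salivary gland. It had 216, 142 and 146 normalized counts in combined libraries, 261, 363 and 266 in fusion protein libraries, 68.6, 149 and 486 in 20 Gy libraries and 143, 427 and 1408 in untreated libraries. Its untreated values spread over 9.84-fold, the widest of the 10 genes, and the limma log2 fold changes against untreated libraries ran from −1.42 to −0.59 (adjusted p = 0.511 to 0.982). Klk1 was the only gene of the 10 for which every combined value lay below every fusion protein value. That held for 3.81% of all genes tested. The mouse genome holds many Klk1b genes of near-identical sequence that may share reads with it, so its level is uncertain. The 6 kidney and salivary gland genes summed to 41.4 to 402 normalized counts in combined, 33.8 to 142 in fusion protein, 22.2 to 84.6 in 20 Gy and 23.8 to 145 in untreated libraries, with Umod and Aqp5 at 0 in 7 libraries each, and their part in Klk1 was not tested.

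As a set, the 9 genes other than Sct had limma log2 fold changes of −1.42 to −0.15 in combined against untreated libraries, with a median of −0.72 beside 0.02 over all genes tested. With the fusion protein alone they ran from −1.62 to −0.51 with a median of −0.87, beside −0.01 over all genes. Without the 4 libraries numbered 3 these medians were −0.25 in combined and −0.47 in fusion protein libraries. After 20 Gy alone all 10 genes were below 0, from −1.58 to −0.12, and none passed the limma test (adjusted p = 0.722 to 0.930). Over all genes tested, 53.26% were above 0 there. In that comparison 0% of all genes tested were called, 6.74% had an unadjusted p under 0.05, and edgeR called 0 genes and DESeq2 45. All 10 genes had passed the filter on low values. Sct passed it through the libraries with fusion protein, where it was high. Among the libraries without fusion protein, only untreated library 3 (13.4) reached a normalized count of 10 for Sct. These comparisons share the untreated libraries, and untreated library 1 was far below libraries 2 and 3 in Siglech, Ccr9, Cox6a2, Pacsin1 and Klk1.

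**Figure D4:**
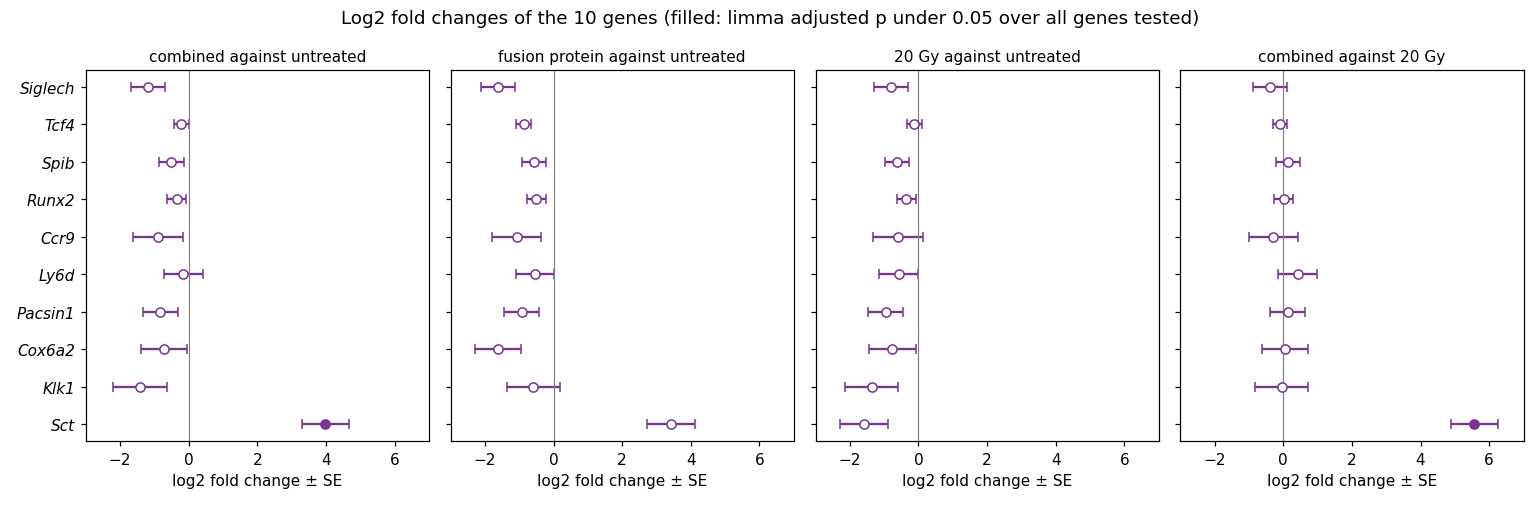
Log2 fold changes from limma with their SE (x axis) for the 10 genes (y axis) in 4 comparisons, with filled points for adjusted p under 0.05 over all genes tested. Sct is filled at 3.99 against untreated and at 5.57 against 20 Gy, is open at 3.42 for the fusion protein alone, and the other 9 genes are open in every panel, between −1.62 and 0.42.

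Adding radiation to the fusion protein changed none of the 10 genes past the limma test. In combined against fusion protein libraries 9 of the 10 log2 differences were above 0, from 0.08 for Spib to 0.90 ± 0.68 for Cox6a2, with Klk1 at −0.83 ± 0.78 (adjusted p = 0.9997 each). Over all genes tested, 53.67% were above 0. With edgeR or DESeq2 7 of the 10 were above 0 (48.51% and 48.68% of all genes), and without the 4 libraries numbered 3 it was 6 (51.87%). The groups did not overlap for Tcf4, Sct and Cox6a2, higher in combined libraries as were 4.48% of all genes tested, and for Klk1, lower as were 3.81%. No gene in the genome was called in that comparison by limma, edgeR or DESeq2, a share of 0%, while 534 genes (2.92%) had an unadjusted limma p under 0.05.

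Whether the fusion protein acted differently with and without radiation was tested as an interaction. Its estimate was above 0 for all 10 genes and for 49.96% of all genes tested. Among the 10 it ran from 0.53 ± 0.39 for Runx2 to 2.14 ± 0.98 for Sct on the log2 scale. The median of the 10 was 0.88 beside −0.0002 over all genes tested. None of the 10 passed the limma test (adjusted p = 0.9999 each), in a fit that called 0% of genes, with 188 (1.03%) at an unadjusted p under 0.05. DESeq2 called 1 gene and edgeR 0. All 10 estimates share the same libraries, and several of the genes vary together between them, so the signs are not independent. For Sct the estimate ran from 1.31 to 2.98 over the limma fits that left out 1 library. In combined against 20 Gy libraries the 9 genes other than Sct lay between −0.40 and 0.42 (limma adjusted p = 0.940 to 0.9965), with a median of 0.02 beside −0.02 over all genes. Without the 4 libraries numbered 3 the median of the 9 was 0.47, beside −0.06 over all genes, and none passed the limma test. Over the 6 libraries with and the 6 without fusion protein, Sct was the only one of the 10 genes whose values did not overlap, as was the case for 1.86% of all genes tested in the higher direction.

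Levels can be compared between genes only per length, and were set per kilobase of exon. In untreated libraries Siglech led with 1231 ± 659 normalized counts per kilobase, followed by Ly6d at 656 ± 294, Klk1 at 612 ± 616 and Cox6a2 at 505 ± 377, none of which differed from its neighbour beyond the SD. Spib and Runx2 stood at 410.4 ± 44.8 and 409.98 ± 149.5 normalized counts per kilobase, and Ccr9, Pacsin1 and Tcf4 between 151 and 215. Sct was last, at 13.9 ± 6.12, below Tcf4 at 151 ± 12.4 by more than either SD. In combined libraries Ly6d and Siglech led with 563 ± 129 and 477 ± 108, and Sct stood at 235 ± 44.9, beside Cox6a2 at 231 ± 25.6 and above Klk1, Tcf4, Pacsin1 and Ccr9. In fusion protein libraries Sct was at 157 ± 20.0 and in 20 Gy libraries at 5.84 ± 7.43 normalized counts per kilobase. The lengths are the union of all annotated transcripts, 27382 bases for Tcf4 and 645 for Sct, which understates genes with many isoforms.

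Siglech was also used to rank how the genes varied between libraries of the same group. With each group's mean subtracted, Cox6a2 was most like it (Pearson r = 0.93 over 12 libraries), then Pacsin1 (0.90), Klk1 (0.83), Ccr9 (0.80) and Tcf4 (0.66). Sct (0.53), Ly6d (0.53), Runx2 (0.46) and Spib (0.40) were less like it. The libraries share depth and cell makeup, so these values describe and do not test. Over all genes tested outside the 10, the 8 most like Siglech were Ptprf (0.99), Nucb2, Paqr5, Jaml, Itgb7, D13Ertd608e, Lamtor2 and Dntt (0.92). Ptprf, a receptor-type tyrosine phosphatase, had 381 ± 90.4 normalized counts in combined, 231 ± 85.7 in fusion protein, 371 ± 177 in 20 Gy and 806 ± 438 in untreated libraries (SD, n = 3 each). It did not pass the limma test either (adjusted p = 0.271 with the fusion protein alone). Not all 8 followed Siglech between groups. Against untreated libraries, Jaml had log2 fold changes of 0.71 ± 0.20 in combined and 0.60 ± 0.20 in fusion protein libraries (limma adjusted p = 0.131 and 0.331). Lamtor2 was at −0.16 and 0.03 and D13Ertd608e at 0.16 and −0.03, in the same order. Ptprf, Nucb2, Paqr5, Itgb7 and Dntt were below 0 in both.

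A wider list of 28 other genes linked to the lineage, of which 27 were tested, moved in both directions. The list is not confined to plasmacytoid dendritic cells, since Flt3 is also among the conventional dendritic cell markers used here. In combined against untreated libraries 2 rose by limma, Ly6c2 (log2 2.93 ± 0.55, adjusted p = 0.0240) and Plac8 (1.97 ± 0.40, adjusted p = 0.0343), and 0 fell. In that fit 1.21% of all genes tested were called higher and 0.192% lower. The list median was 0.05, beside 0.02 over all genes tested. Ly6c2 and Plac8 are also transcribed in monocytes. With the replicate block 6 rose, adding Bst2, Gzmb, Slamf9 and Zeb2, and 3 fell, which were Flt3, Mycl and Ptprs, where 5.24% of all genes tested were called higher and 2.49% lower. With the fusion protein alone 0 rose and 1 fell, the C-type lectin gene Klra17 (−1.95 ± 0.35, adjusted p = 0.0286), where 0.586% of all genes tested were called higher and 0.159% lower. The list median was −0.24, beside −0.01 over all genes. With the block 4 rose and 4 fell, where 2.28% were called higher and 1.02% lower. Against 20 Gy, Ly6c2 rose in combined libraries (3.53 ± 0.55, adjusted p = 0.00931) and nothing fell, where 0.843% of all genes tested were called higher and 0.186% lower. The limma counts dropped to 0 without combined library 1 or 3 or untreated library 2 in the first comparison, without fusion protein library 3 or untreated library 2 or 3 in the second, and without combined library 1 or 3 or 20 Gy library 1 or 2 in the third.

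Of 14 genes tested that carry the nucleic acid signal towards interferon, 2 rose in combined libraries and 1 with the fusion protein alone, where 1.21% and 0.586% of all genes tested were called higher. Irf7, the factor that switches on interferon alpha genes, rose by a log2 of 3.76 ± 0.36 in combined (limma adjusted p = 0.00041) and 3.31 ± 0.36 in fusion protein libraries (adjusted p = 0.00178) against untreated ones. Tlr9, the endosomal DNA sensor, rose by 1.26 ± 0.22 in combined libraries (adjusted p = 0.0171), with 3252 ± 824 normalized counts there and 1335 ± 141 in untreated libraries (SD, n = 3 each). Without combined library 1 or 3, or untreated library 2 or 3, 1 gene of the list was called in place of 2. No gene of this list fell. With the replicate block Irf5, Myd88 and Tlr7 rose too in combined libraries, where 5.24% of all genes tested were called higher. Irf7 is itself induced by interferon in many cell types, and all 10 genes of an interferon response list rose in combined libraries, as did 9 with the fusion protein alone, with list medians of 3.95 and 3.32, in the same fits that called 1.21% and 0.586% of all genes tested higher.

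Apart from Ifnb1 in 20 Gy library 3, the interferon genes themselves were near the limit of detection on day 17. None of 20 type I and III interferon genes passed the filter on low values. Summed over the 20, combined libraries had 9.44 to 22.4 normalized counts, fusion protein libraries 6.08 to 16.5, 20 Gy libraries 28.9 to 102 and untreated libraries 0 to 26.9. The highest single value was 91.6 normalized counts of Ifnb1 in 20 Gy library 3, where 3 reads are worth 3.93. The interferon alpha genes are near-identical to one another and may share reads.

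Library depth ran from 14462032 to 23985496 reads in genes. Between 4.53% and 74.8% of 1988 odorant, pheromone and trace amine receptor genes, which these cells are not known to use, had a read in a library, with the highest share in 20 Gy library 1. Melanoma transcripts, 5 markers summed, were highest in library 3 of every group, at 810.5 normalized counts in combined, 3770 in fusion protein, 14153 in 20 Gy and 1578 in untreated. A list of 7 genes used as markers of conventional dendritic cells summed to 30647 to 42604 normalized counts in combined and 12659 to 34608 in fusion protein libraries. It summed to 65437 to 68582 in 20 Gy and 36616 to 77015 in untreated libraries. The list holds Itgax, the gene of CD11c, which many macrophages carry too, so it is not confined to conventional dendritic cells. The part of these differences in the values of the 10 genes was not tested. Without the 4 libraries numbered 3, Sct still rose by limma in combined against untreated libraries, by a log2 of 4.14 (adjusted p = 0.0294), and against 20 Gy, by 6.26 (adjusted p = 0.00554).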

How the data were processed

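Per the submitters' processing notes, reads were checked with FastQC, trimmed with Trimmomatic, aligned with STAR to mm10 (GRCm38), counted in genes with featureCounts and normalized with DESeq2. Versions, settings and the use of strand in counting are not given in the sources. Per the labels, libraries came from a stranded total RNA kit for low input (SMARTer Pico v2). The values as deposited are a signal, read counts divided by DESeq2 size factors, from which whole reads were recovered within 0.001 in 100% of values. Symbols came from GENCODE vM21 (55141 of 55401 identifiers, 99.53%), and no column was left out.

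The tests covered 18274 genes, those that reached a normalized count of 10 in 3 or more libraries. Log2(normalized count + 1) was fitted with limma 3.58.1 (R 4.3.3, variance trend, 12 samples in 4 groups, 8 residual and 3.3128 prior degrees of freedom), two-sided, with Benjamini-Hochberg adjustment over all genes tested and a threshold of 0.05. Rose, fell and called refer to that threshold. Alternatives were edgeR 4.0.16 (quasi-likelihood, TMM) and DESeq2 1.42.0 on the recovered reads, pseudocounts of 0.5 and 10, nearly no filter, the replicate number as a block, the 6 compared samples alone and fits without libraries. The steps were tested on simulated counts.

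Residuals of same-numbered samples correlated at 0.334 to 0.389 (combined), 0.473 to 0.621 (fusion protein) and 0.156 to 0.496 (20 Gy) against untreated, and at 0.41 to 0.484 for combined against fusion protein, so blocked values are given there where they change a call. The pairing comes from these correlations, since the meaning of the number is not in the labels. It did not hold throughout. Library 2 of the 20 Gy group correlated more with another untreated library than with untreated library 2 (0.156). Combined library 2 likewise correlated more with another 20 Gy library than with 20 Gy library 2 (0.0095). The block was fitted over all 12 libraries, these included. No replicate pair was identical. The 10 genes, the lists and the rule that up to 3 genes of smallest p in a list, and the 8 genes most like Siglech, may be named were chosen with earlier results of these data known. Genes called only with the block, Ifnb1 and the library markers are named beyond that rule, after their values were seen.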

Additional observations from a re-analysis of the deposited data

How the results depend on the processing

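Apart from the fits that left out 1 library, the rise of Sct in combined libraries was called under every other setting in both comparisons where limma called it. Of the 6 fits that left out 1 library, 2 called Sct against untreated libraries and 6 against 20 Gy. Leaving out 1 library gave 0 to 1 of the 10 genes called against untreated libraries. With the fusion protein alone against untreated, where limma called 0 of the 10 genes, 1 was called with a pseudocount of 10 (Sct, adjusted p = 0.00314), 1 with nearly no filter (Sct, adjusted p = 0.0462), 2 with the replicate block and 3 with DESeq2 (Sct, Tcf4 and Siglech). The replicate block changed no other call among the 10 genes. For combined against 20 Gy, where 1 pair correlated at 0.0095, it gave 1 call as without it.

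Without the 4 libraries numbered 3, Klk1 turned to 0.32 (fusion protein against untreated), Ly6d to −0.23, Pacsin1 to −0.11 and Spib to −0.17 (combined against fusion protein), and Siglech to 0.04, Ccr9 to 0.47 and Klk1 to 0.79 (combined against 20 Gy), on the log2 scale. With edgeR and DESeq2, Pacsin1 turned to −0.02 in both, Spib to −0.08 and −0.07 (combined against fusion protein) and Cox6a2 to −0.20 in both (combined against 20 Gy). None of these was called under any setting, and the cause was not tested.

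Leaving out 1 library turned the direction of uncalled genes, whose log2 ranges over these fits were Ly6d −0.43 to 0.19 (combined against untreated), Ly6d −1.08 to 0.25 and Klk1 −1.40 to 0.24 (fusion protein against untreated), Ccr9 −1.39 to 0.16 (20 Gy against untreated), Ly6d −0.41 to 0.93, Pacsin1 −0.18 to 0.48 and Spib −0.35 to 0.52 (combined against fusion protein), Ccr9 −0.87 to 0.45, Cox6a2 −0.44 to 0.60, Pacsin1 −0.18 to 0.40, Runx2 −0.10 to 0.10 and Klk1 −0.70 to 0.70 (combined against 20 Gy), Klk1 −0.30 to 1.35 (interaction of radiation and fusion protein).

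Over the whole genome, limma called 256 genes in combined against untreated, 1413 with the block, 755 by DESeq2 and 200 by edgeR. The counts were 136, 602, 466 and 110 for the fusion protein alone and 188, 834, 550 and 152 for combined against 20 Gy. For 20 Gy alone they were 0, 70, 45 and 0. Depth limits Sct most, at 9 reads over the 20 Gy group and 27 over the untreated group.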
